A study of Danio rerio with 30 samples.

Results

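The genes described here are those of the proteasome, taken as every gene whose name starts with psm, a letter from a to g and a number. The triplicate experiment listed 53 of them among 14648 genes. The preliminary experiment listed 51 among 31874 genes at 18 hours post fertilization (hpf) and 53 among 14648 genes at 21 hpf. RNA was measured by sequencing of polyA RNA from zebrafish (Danio rerio) embryos of the *AB strain, each library holding 10 pooled embryos. The deficient embryos had been injected at the single cell stage with morpholinos, antisense oligonucleotides directed against Tbx5a, Tbx5b or both, and were compared with wildtype embryos. The 8 groups of the triplicate experiment were Tbx5a-deficient, Tbx5b-deficient, double-deficient and wildtype embryos at 21 hpf and the same genotypes at 18 hpf, with 3 libraries per group and the eyes removed. The 6 preliminary libraries came from embryos with eyes, 1 each for Tbx5a-deficient, Tbx5b-deficient and wildtype embryos at each stage, with no double-deficient embryos. A morpholino lowers its target for a limited time in all tissues, and no control injection for wildtype embryos is named in the sources used here. The comparisons address how far the RNA of this complex differed between embryos deficient in either paralogue and wildtype embryos, and between stages.

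The proteasome is the main protease of the cytosol and nucleus and degrades proteins that carry chains of ubiquitin. Its barrel-shaped core particle is built of rings of alpha subunits (psma genes), which gate the entrance, and of beta subunits (psmb genes), of which psmb5, psmb6 and psmb7 encode the proteolytic sites. The regulatory particle binds the end of the barrel. Its base holds a ring of ATPases (psmc genes) that unfold substrates, with the scaffolds psmd1 and psmd2 and the ubiquitin receptor psmd4, and its lid holds the deubiquitinase psmd14 among other psmd subunits. Dedicated chaperones (psmg genes for the core, psmd5, psmd9 and psmd10 for the base) assemble the particles and then leave. The psme genes encode other caps of the core, and psmf1 encodes a protein known as an inhibitor in mammals. The subunits occur in fixed numbers in the assembled particle.

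The values are FPKM, fragments per kilobase of transcript scaled to the mapped fragments of a library, and so can be compared between genes. The summed FPKM of all genes differed between groups and was largest in wildtype embryos at 21 hpf. A highest value named for that group is one of the listed FPKM and need not hold with equal sums. The triplicate experiment gives 1 pooled value per gene and group with a lower and an upper bound, and no value for a single library. The differences below therefore carry no standard deviation and no p-value, and their precision is that of the bounds. Among the proteasome genes of at least 10 FPKM the upper bound exceeded the value by 42.3% to 46.7%, as the median in each group. At these widths a difference of 2.47- to 2.75-fold is needed before bounds separate. As the RNA is that of embryos, with or without eyes, and not of separated cell types, fewer cells of a type and less RNA per cell cannot be told apart.

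The targeted genes, which act in small fields such as the heart and pectoral fin, had little RNA, and their bounds overlapped among all triplicate groups. tbx5a had 1.90, 1.28 and 1.16 FPKM in embryos deficient in Tbx5a, Tbx5b or both at 21 hpf, against 1.04 FPKM in wildtype embryos, and tbx5b had 0.0699 to 0.229 FPKM over the 8 groups. In the preliminary experiment tbx5a stood at 16.1 FPKM in the library labelled Tbx5a-deficient at 21 hpf, against 2.51 FPKM in wildtype, and at 5.30 FPKM in the 18 hpf library labelled Tbx5b-deficient, against 1.11 FPKM in wildtype. The study's methods call the Tbx5b morpholino translation blocking and give no mode of action for that against Tbx5a. A morpholino that blocks translation need not lower its target RNA, so these values do not check the labels. The summed FPKM of 12 eye markers was 31.6, 49.9 and 32.5 in embryos deficient in Tbx5a, Tbx5b or both at 21 hpf, against 25.5 in wildtype embryos, and 15.2 to 20.02 over the groups of 18 hpf, while that of the 11 or 12 listed in the preliminary libraries was 45.5 to 333. The summed FPKM of 7 skeletal muscle markers was 1086 to 2823 in the triplicate groups.

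Of the 53 proteasome genes, 46 reached 1 FPKM in the triplicate experiment, and each of these 46 did so in all 8 groups. The remaining 7 genes (psma6l, psmb8a, psmb9a, psmb10, psmb11b, psmb12 and psme2) stayed below 1 FPKM in every group. All 46 were kept in each of the 10 triplicate comparisons, so that the minimum of 1 FPKM did not choose genes by their difference. 1 of the 46, psmc3ip, shares only the name, as it encodes a cofactor of meiotic recombination. The genes lay on 22 chromosomes or unplaced sequences. One locus on chromosome 19, from 7119768 to 7319471 on the coordinates of the files, whose build is not named, is given for psmb8a, psmb9a, psmb10 and psmb12 together.

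The core subunits were the most abundant. psmb6, which encodes the subunit with caspase-like activity and lies on chromosome 23 from 44720922 to 44729561, had 339, 434 and 410 FPKM in embryos deficient in Tbx5a, Tbx5b or both at 21 hpf, against 635 FPKM in wildtype embryos. At 18 hpf it had 520, 337 and 591 FPKM in the deficient groups in the same order, against 497 FPKM in wildtype embryos. It was the most abundant proteasome gene in each of the 8 triplicate groups. psmb7, the trypsin-like subunit, had 323, 411 and 355 FPKM in the deficient groups at 21 hpf, against 524 FPKM in wildtype embryos. At 18 hpf psmb7 had 417, 318 and 490 FPKM, against 410 FPKM in wildtype embryos. Both thus had their highest listed FPKM in wildtype embryos at 21 hpf. psmb5, the chymotrypsin-like subunit and the main target of proteasome inhibitor drugs, had 188, 225 and 197 FPKM at 21 hpf, against 286 FPKM in wildtype embryos. At 18 hpf psmb5 had 261, 170 and 305 FPKM, against 236 FPKM in wildtype embryos. The genes of the proteolytic sites thus stood apart from each other in level in the same order in all 8 groups, with psmb6 first and psmb5 last, and psmb5 was highest in double-deficient embryos at 18 hpf. The bounds of all 8 groups overlapped for each gene. In the preliminary libraries of both stages psmb7 stood above psmb6 instead. At 21 hpf psmb7 had 245 and 301 FPKM under the Tbx5a and Tbx5b labels, against 263 FPKM in wildtype. psmb6 had 232 and 235 FPKM there, against 256 FPKM in wildtype. At 18 hpf psmb7 had 318 FPKM under either label and 367 FPKM in wildtype, and psmb6 had 278, 266 and 301 FPKM in that order.

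Where the genome holds paired copies of a subunit, as teleosts often do, both copies were expressed. psma6a made up 57.3% to 62.0% of the summed FPKM of psma6a and psma6b in the triplicate groups. For the ATPase psmc1 the share of psmc1a was 51.7% to 60.0%, and for the ubiquitin receptor psmd4 the share of psmd4a was 48.2% to 53.6%. In the lid the share of psmd11a was lower, 34.3% to 44.5%.

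The copies are given with their values, since the counting may divide reads between near-identical sequences. At 21 hpf psma6a had 182, 218 and 173 FPKM and psma6b 118, 141 and 129 FPKM in embryos deficient in Tbx5a, Tbx5b or both, against 264 and 186 FPKM in wildtype embryos. At 18 hpf psma6a had 202, 182 and 243 FPKM and psma6b 136, 111 and 151 FPKM, against 228 and 142 FPKM in wildtype embryos. Both copies thus had their highest listed FPKM in wildtype embryos at 21 hpf, with overlapping bounds. The ATPase psmc1a had 107, 125 and 108 FPKM at 21 hpf, against 130 FPKM in wildtype embryos, and 98.3, 94.3 and 109 FPKM at 18 hpf, against 113 FPKM. psmc1b had 71.5, 93.9 and 73.4 FPKM at 21 hpf, against 109 FPKM in wildtype embryos, and 83.6, 66.3 and 101 FPKM at 18 hpf, against 90.8 FPKM. Of this pair psmc1b varied more between groups. psmd4a had 88.9, 97.0 and 86.5 FPKM at 21 hpf, against 110 FPKM in wildtype embryos, and 87.5, 77.0 and 95.7 FPKM at 18 hpf, against 97.1 FPKM. psmd4b had 84.7, 92.8 and 75.6 FPKM at 21 hpf, against 95.6 FPKM, and 83.8, 82.9 and 90.0 FPKM at 18 hpf, against 93.0 FPKM. These 2 ubiquitin receptors were close to equal throughout. psmd11a had 20.2, 24.9 and 23.7 FPKM at 21 hpf, against 26.6 FPKM in wildtype embryos, and 24.0, 20.01 and 28.7 FPKM at 18 hpf, against 24.3 FPKM. psmd11b had 38.8, 40.9 and 34.3 FPKM at 21 hpf, against 38.9 FPKM, and 36.5, 38.0 and 35.7 FPKM at 18 hpf, against 37.0 FPKM, a narrow range of 1.19-fold over the 8 groups.

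With the copies added up, the core had 14 positions, which spanned 1.84- to 2.74-fold between the lowest and the highest within a group. psma2 was the lowest core position in 7 groups and psmb5 in Tbx5b-deficient embryos at 18 hpf. The 6 ATPase positions spanned only 1.31- to 1.83-fold, from psmc6 at the low end to psmc5 at the high end in every group. psmd11, at 58.0 to 65.8 FPKM for both copies, was the lowest of the 8 lid positions and of all 31 positions in every group.

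The particles of the complex also differed from each other in level, the core standing highest. The median core position had 281 to 424 FPKM across groups, the median ATPase position 158 to 206 FPKM and the median lid position 128 to 176 FPKM. The ratio of the core median to the ATPase median was 1.66, 1.74 and 1.70 in embryos deficient in Tbx5a, Tbx5b or both at 21 hpf, against 2.06 in wildtype embryos. At 18 hpf it was 1.90, 1.78 and 1.96 in the deficient groups, against 1.89 in wildtype embryos. The wildtype group at 21 hpf had the largest excess of core over ATPase RNA of the 8 groups. The preliminary libraries did not repeat this. There the ratio was 1.43 and 1.38 under the Tbx5a and Tbx5b labels at 21 hpf, against 1.43 in wildtype. At 18 hpf it was 1.54 and 1.47 under these labels, against 1.49 in wildtype. The sets differ at that stage, as the preliminary core had 13 positions without psmb5, and psmc4 stood at 436 to 584 FPKM among the ATPases. psma8, the most abundant alpha gene of wildtype embryos at 18 hpf, had 290, 347 and 290 FPKM in embryos deficient in Tbx5a, Tbx5b or both at 21 hpf, against 399 FPKM in wildtype embryos, and 307, 277 and 348 FPKM at 18 hpf, against 350 FPKM. psmc5, the highest ATPase, had 205, 251 and 217 FPKM at 21 hpf, against 276 FPKM in wildtype embryos, and 220, 185 and 255 FPKM at 18 hpf, against 244 FPKM. psmd6, the highest lid subunit, had 182, 204 and 167 FPKM at 21 hpf, against 245 FPKM in wildtype embryos, and 193, 174 and 221 FPKM at 18 hpf, against 193 FPKM. All had their highest listed FPKM in wildtype embryos at 21 hpf, the group with the largest summed FPKM, and overlapping bounds. The scaffolds of the base, psmd1 and psmd2, were lower than any ATPase position.

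The assembly chaperones were less abundant than the subunits they assemble. psmg1, which helps to place the alpha ring, had 45.1, 53.2 and 53.4 FPKM in embryos deficient in Tbx5a, Tbx5b or both at 21 hpf, against 83.6 FPKM in wildtype embryos. At 18 hpf psmg1 had 78.1, 50.4 and 87.8 FPKM in the deficient groups, against 70.7 FPKM in wildtype embryos. Its lowest and highest group thus differed 1.95-fold, with overlapping bounds. Its partner psmg2 ranged from 40.9 to 63.2 FPKM and psmg3 from 23.8 to 35.4 FPKM. Of the base chaperones, psmd9 had 47.3, 53.4 and 48.2 FPKM in embryos deficient in Tbx5a, Tbx5b or both at 21 hpf, against 69.4 FPKM in wildtype embryos, and 59.4, 53.8 and 61.7 FPKM at 18 hpf, against 63.5 FPKM. psmd5, the least abundant chaperone in all groups but Tbx5a-deficient embryos at 18 hpf, where psmd10 had 22.4 FPKM, had 16.8, 20.5 and 17.9 FPKM at 21 hpf, against 26.4 FPKM in wildtype embryos, and 22.5, 15.4 and 23.6 FPKM at 18 hpf, against 21.1 FPKM. Both had their highest listed FPKM in wildtype embryos at 21 hpf, as had psmd10, which ranged from 19.6 to 33.0 FPKM.

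Among the alternative caps 1 gene dominated. psme3, the nuclear activator found widely in animal cells, had 87.6, 83.5 and 77.0 FPKM in embryos deficient in Tbx5a, Tbx5b or both at 21 hpf, against 98.2 FPKM in wildtype embryos. At 18 hpf psme3 had 75.2, 88.5 and 72.6 FPKM, against 92.4 FPKM in wildtype embryos. psme1, whose mammalian counterpart is induced by interferon, ranged from 1.66 to 3.90 FPKM, and psme2, its partner, stayed at or below 0.472 FPKM. psme4b, a single-chain cap, ranged from 8.36 to 10.2 FPKM and psmf1 from 6.72 to 10.3 FPKM. psme3 is listed at 1 locus with skap1, so that its value may hold reads of a neighbour. The immune subunits psmb8a and psmb9a, which replace psmb5 and psmb6 in mammalian cells exposed to interferon, were at or near 0. The summed FPKM of the 5 inducible or tissue-restricted beta genes was 0.261 to 0.731 across groups, against 1984 to 3229 FPKM for the 7 constitutive ones. The summed FPKM of 11 interferon response genes was 8.64 to 15.6 and that of 6 leukocyte markers 5.76 to 16.8 in the same groups. The gene listed as psmb10 lies at the chromosome 19 locus, while the RefSeq annotation of GRCz12tu places psmb10 on chromosome 4 and gives that name as a synonym of psmb13a, so its identity is uncertain.

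**Figure D1:**
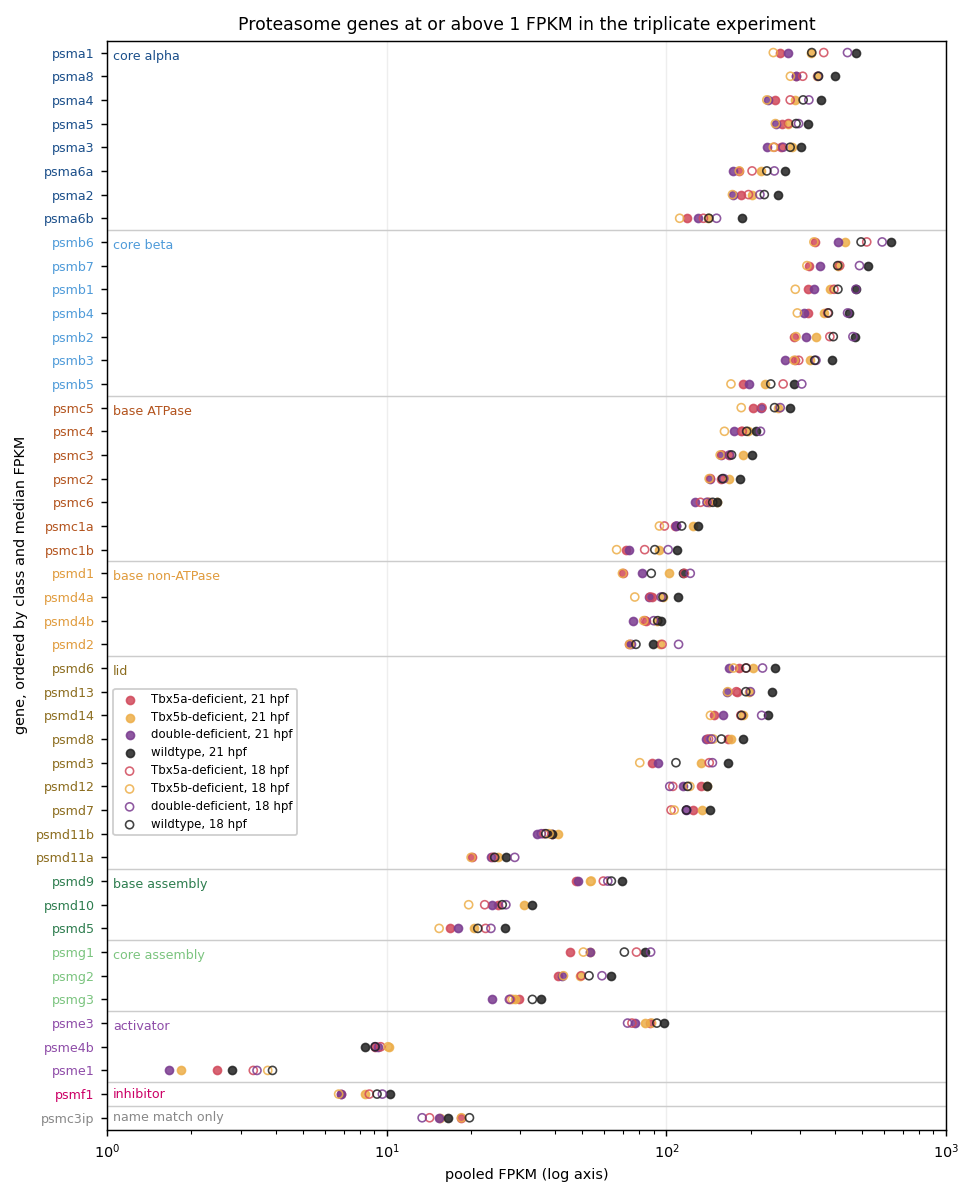
Pooled FPKM (log axis) of the 46 proteasome genes of at least 1 FPKM in the triplicate experiment, each row a gene and each point 1 of the 8 groups, filled at 21 hpf and open at 18 hpf. Core genes sit highest, psmb6 reaching 635 FPKM, assembly chaperones lie at 15.4 to 87.8 FPKM, and psme1 stays below 4 FPKM.

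The order of the genes by level hardly moved between groups. Over the 53 genes the lowest Spearman's rho between any pair of triplicate groups was 0.984, and over the 36 structural subunits of the core, base and lid it was 0.957. These are correlations across genes, which are not independent replicates. A shift common to all genes leaves their order unchanged. The correlations therefore do not give the size of the differences between groups described next.

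At 21 hpf the proteasome genes were lower in the deficient groups on the scale of the listed FPKM. Ratios are given as log2 of FPKM + 1 in deficient over wildtype embryos, and a gene was counted when it was at least 1.5-fold apart. The median over the 46 genes was -0.43 for Tbx5a deficiency, -0.25 for Tbx5b deficiency and -0.50 for deficiency in both, against -0.02, -0.04 and -0.03 over all genes kept in the same comparisons. These comparisons share the wildtype group and are not independent of each other. In Tbx5a-deficient embryos 13 of the 46 genes were at least 1.5-fold lower, where 8.14% of all genes were, and 0 were higher, where 1.08% were. The 1025 genes of mean FPKM of at least 100 had a lower quartile of -0.64 in that comparison, itself past the 1.5-fold limit. Not all proteasome genes reach that level. In Tbx5b-deficient embryos 1 gene was lower, where 2.73% of all genes were, and 0 were higher, where 0.336% were. In double-deficient embryos 6 were lower, where 4.21% were, and 0 were higher, where 2.62% were. Of the eye markers, 6 of the 10 kept were at least 1.5-fold higher and 0 lower in Tbx5b-deficient embryos, with a median of 0.81, and their part in these results was not tested. No proteasome gene had bounds apart in any of the 3 comparisons, where 0.316%, 0.252% and 0.305% of all genes did. The proteasome medians differed from those over all genes by -0.41, -0.21 and -0.46. From those over the 1025 genes of mean FPKM of at least 100 they differed by only -0.02, 0.04 and -0.13. The direction relative to wildtype embryos depended on the scale. When the groups were set to the same summed FPKM, the medians became 0.13, 0.17 and -0.06 in the same order, so that the first 2 changed sign.

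That scale moves every gene, as the log2 ratio of the summed FPKM of all genes to that of wildtype embryos at 21 hpf was -0.56, -0.42 and -0.45 in embryos deficient in Tbx5a, Tbx5b or both. It shifts all genes nearly alike, and so can turn the sign of a median without reversing its place below the median over all genes. The 173 genes that reached 1000 FPKM in any of the 8 groups held 60.0% to 67.5% of the sum. As a share of all FPKM the proteasome genes made up 0.757%, 0.797% and 0.695% in embryos deficient in Tbx5a, Tbx5b or both at 21 hpf, against 0.721% in wildtype embryos. At 18 hpf the share was 0.713%, 0.729% and 0.736% in the deficient groups, against 0.729% in wildtype embryos. Without the genes of at least 1000 FPKM in the total the order was another, with shares of 1.90%, 2.12% and 1.85% in embryos deficient in Tbx5a, Tbx5b or both at 21 hpf, against 2.22% in wildtype embryos, and of 2.02%, 1.83% and 2.2% at 18 hpf, against 2.05%.

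By role, the core and the assembly chaperones had lower median ratios than the regulatory particle at 21 hpf. In Tbx5a-deficient embryos the median was -0.55 over 15 core genes, -0.58 over 6 assembly chaperones and -0.28 over 20 genes of the base and lid. In Tbx5b-deficient embryos it was -0.31 over core genes, -0.35 over chaperones and -0.12 over base and lid genes. In double-deficient embryos it was -0.54 over core genes, -0.54 over chaperones and -0.35 over base and lid genes. All 15 core genes and all 6 chaperones had a lower FPKM than wildtype embryos in each comparison, where 52%, 57.5% and 54.4% of all genes did. The base and lid genes were also all lower in Tbx5a-deficient and in double-deficient embryos. In Tbx5b-deficient embryos they were too, except psmc6, psmd2 and psmd11b. Over the 46 genes the counts lower by any amount were 44, 42 and 45. Lower in all deficient groups at once were 41 of the 46 genes (89.1%) and 39.1% of all genes. Of the 1025 genes of mean FPKM of at least 100, 83.1% were, and the chaperones lie below that level. A scale common to a group, such as that of equal sums, shifts all roles alike and so can turn these signs but not the order of the roles.

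The most negative ratios in Tbx5a-deficient embryos at 21 hpf were psmb6 at -0.90, psma1 at -0.90 and psmd3 at -0.89. With equal summed FPKM these were -0.34, -0.34 and -0.33, and the ratio farthest from 0 was then 0.67, that of psmc3ip. psma1, an alpha subunit on chromosome 25 from 36881719 to 36886678, had 255, 328 and 273 FPKM in embryos deficient in Tbx5a, Tbx5b or both at 21 hpf, against 476 FPKM in wildtype embryos. The bounds for psma1 were 146 to 363 FPKM in Tbx5a-deficient embryos and 202 to 749 FPKM in wildtype embryos, so they overlapped widely. psmd3, a scaffold of the lid on chromosome 19 from 48388970 to 48399057, had 88.9, 132 and 93.3 FPKM in the deficient groups at 21 hpf, against 165 FPKM in wildtype embryos. Its ratio was -0.82 in double-deficient embryos, the most negative there, and -0.38 with equal summed FPKM. psmg1, on chromosome 10 from 206996 to 210703, had ratios of -0.88, -0.64 and -0.64 in embryos deficient in Tbx5a, Tbx5b or both at 21 hpf. Its bounds were 25.4 to 64.7 FPKM in Tbx5a-deficient embryos and 43.2 to 124 FPKM in wildtype embryos, so they overlapped too.

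**Figure D2:**
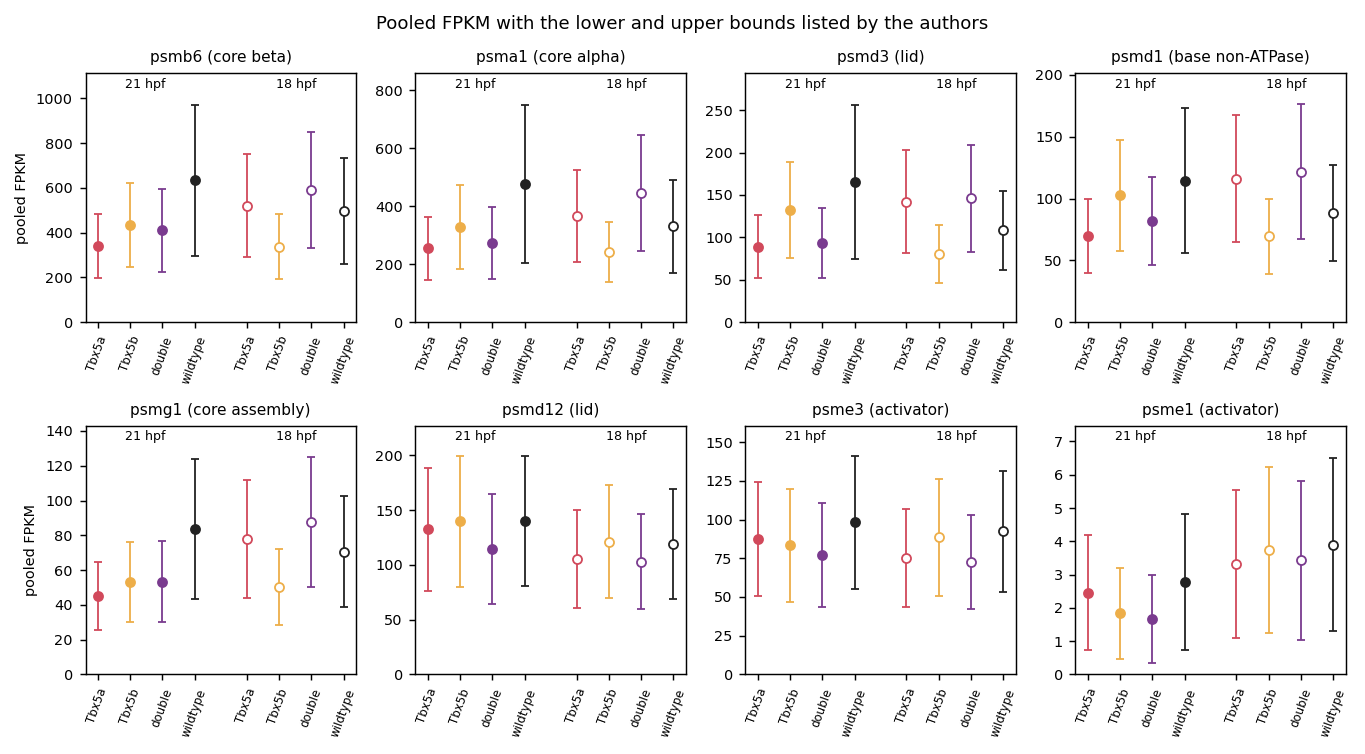
Pooled FPKM of 8 proteasome genes in the triplicate groups, with bars from the lower to the upper bound given by the authors, 21 hpf filled on the left and 18 hpf open on the right. The bars of all groups overlap in every panel, and the psmg1 panel has its lowest group at 45.1 FPKM (Tbx5a-deficient, 21 hpf) and its highest at 87.8 FPKM (double-deficient, 18 hpf).

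Other members were nearer to their wildtype level on the scale of the listed FPKM, though not with equal sums, where psmd11b had 0.54 and psme4b 0.59 in Tbx5a-deficient embryos at 21 hpf. psmd12, another lid subunit, had 133, 140 and 115 FPKM in embryos deficient in Tbx5a, Tbx5b or both at 21 hpf, against 140 FPKM in wildtype embryos. psmd11b, also of the lid, had ratios of 0.00, 0.07 and -0.18 in the deficient groups at that stage. The ATPase psmc6 had ratios of -0.10, 0.00 and -0.26 in the deficient groups at 21 hpf. The cap psme4b had 0.10, 0.26 and 0.14 in the same order. The name match psmc3ip had ratios of 0.15, -0.09 and -0.11.

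**Figure D3:**
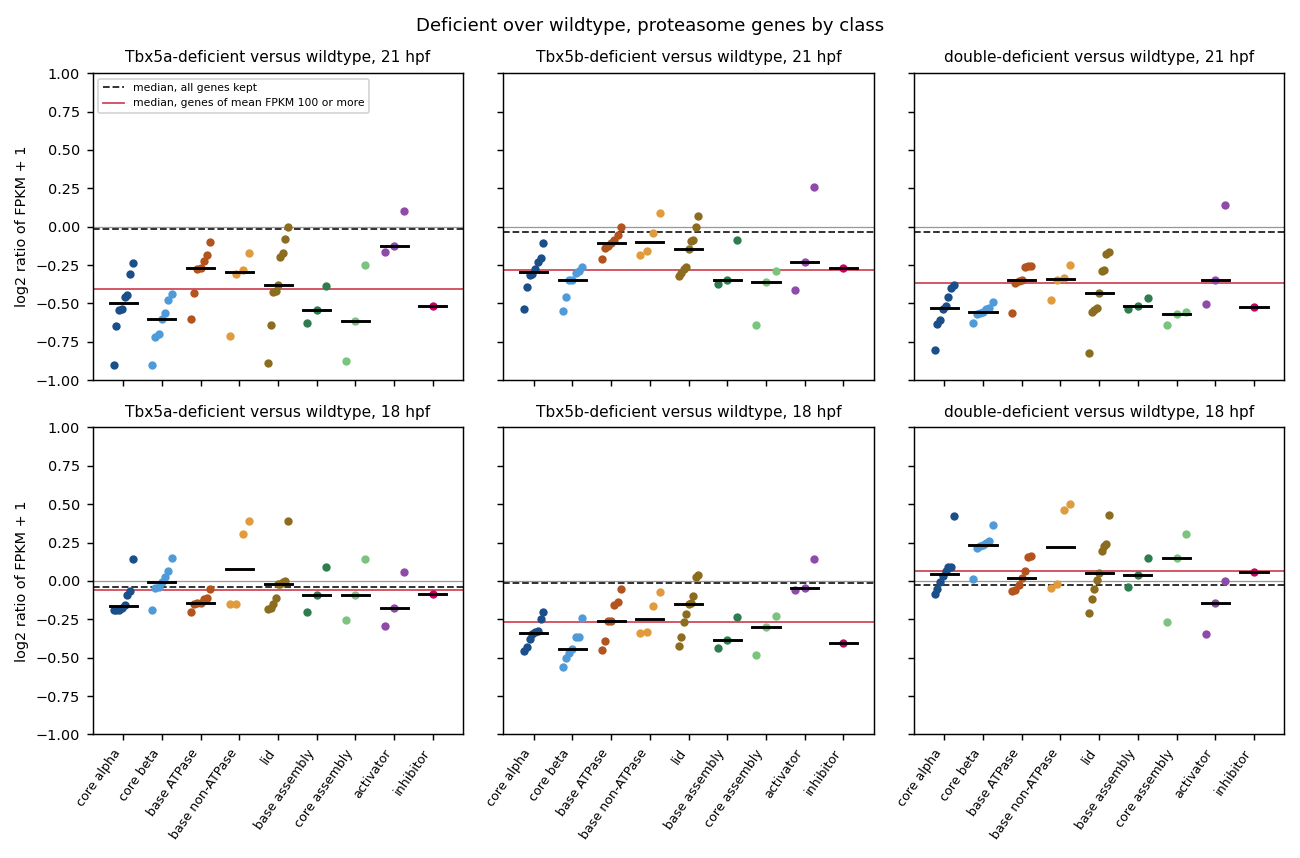
Log2 ratio of FPKM + 1 of proteasome genes in deficient over wildtype embryos at 21 hpf (top) and 18 hpf (bottom), each point a gene and each black bar the median of a class, with the medians of all genes kept (dashed) and of genes of mean FPKM of at least 100 (red). At 21 hpf core and assembly medians lie between -0.29 and -0.62, below the all-gene medians, and with equal summed FPKM the overall medians become 0.13, 0.17 and -0.06.

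At 18 hpf the groups differed in another way. The median over the 46 genes was -0.10 for Tbx5a deficiency, -0.28 for Tbx5b deficiency and 0.06 for deficiency in both, against -0.04, -0.01 and -0.03 over all genes kept. With equal summed FPKM these medians were -0.08, 0.03 and -0.06, so that the signs for Tbx5b-deficient and double-deficient embryos were not kept. No proteasome gene was 1.5-fold apart in any of the 3 comparisons, where 0.87%, 1.38% and 0.861% of all genes were lower and 0.643%, 0.659% and 0.738% higher. None had bounds apart, where 0.303%, 0.301% and 0.265% of all genes did. In Tbx5a-deficient embryos 35 of the 46 genes were lower by any amount, where 57.8% of all genes were. In Tbx5b-deficient embryos 43 of the 46 genes were lower by any amount, where 52.4% of all genes were, and in double-deficient embryos 30 were higher, where 45.4% of all genes were. The most negative ratios in Tbx5b-deficient embryos were psmb6 at -0.56, psmb1 at -0.51 and psmg1 at -0.48, which with equal summed FPKM were -0.24, -0.18 and -0.16. psmb1 is listed at 1 locus with 16 other genes, so its value is uncertain.

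Within the regulatory particle 3 large subunits stood apart from the rest at 18 hpf. They were singled out after their values were seen. psmd1, the larger scaffold of the base, had 116, 69.6 and 122 FPKM in embryos deficient in Tbx5a, Tbx5b or both at 18 hpf, against 88.2 FPKM in wildtype embryos. psmd2, the other scaffold, had 96.4, 73.9 and 110 FPKM, against 77.8 FPKM in wildtype embryos. psmd3 had 142, 80.3 and 146 FPKM, against 108 FPKM in wildtype embryos. All were higher in the Tbx5a-deficient and double-deficient groups than in wildtype embryos, with ratios of 0.31 to 0.39 and 0.43 to 0.50, while the class medians of the ATPases were -0.14 and 0.02. In Tbx5b-deficient embryos psmd1 and psmd3 had ratios of -0.34 and -0.43 and psmd2 one of -0.07. Their bounds overlapped those of wildtype embryos in every case, for psmd3 83.1 to 209 FPKM in double-deficient and 61.7 to 155 FPKM in wildtype embryos. psmd1 is listed at 1 locus with htr2b, and psmd2 on an unplaced sequence.

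The differences ran with the level of the genes. All genes kept were divided by their mean FPKM over the 8 groups, a division chosen after the values of the proteasome genes were seen. In Tbx5a-deficient embryos at 21 hpf the median ratio was 0.08 for genes of 1 to 10 FPKM, -0.04 for 10 to 50, -0.19 for 50 to 100, -0.28 for 100 to 200, -0.43 for 200 to 500 and -0.72 for genes of at least 1000 FPKM. In double-deficient embryos at that stage the median ran from 0.10 to -0.54 between the lowest and the highest level, and in Tbx5b-deficient embryos from 0.03 to -0.50. At 18 hpf it ran from 0.06 to -0.46 in Tbx5b-deficient embryos and from -0.04 to 0.15 in double-deficient embryos, and stayed between -0.03 and -0.07 in Tbx5a-deficient embryos. The 15 proteasome genes of 200 to 500 FPKM, nearly all of them core genes, had medians of -0.53, -0.30 and -0.54 in embryos deficient in Tbx5a, Tbx5b or both at 21 hpf, against -0.43, -0.30 and -0.39 over all 297 genes of that level. The 13 proteasome genes of 100 to 200 FPKM had -0.27, -0.13 and -0.36, against -0.28, -0.21 and -0.28 over 485 genes.

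At 21 hpf the chaperones lay below the median of genes of their own level in all deficient groups, a pattern noticed after their values were seen. The 6 chaperones lay between 10 and 100 FPKM, where the medians over all genes were -0.04 and -0.19 in Tbx5a-deficient embryos at 21 hpf for the lower and the upper part of that range. psmg1, psmg2, psmd5 and psmd9 had ratios of -0.88, -0.62, -0.63 and -0.54 in that comparison, and psmd10 and psmg3 had -0.39 and -0.25. In double-deficient embryos the chaperones lay between -0.46 and -0.64, where all genes of 10 to 50 and 50 to 100 FPKM had medians of -0.08 and -0.21. In Tbx5b-deficient embryos they lay between -0.09 (psmd10) and -0.64 (psmg1), where these levels had medians of -0.05 and -0.15. At 18 hpf all chaperones again lay below the level median in Tbx5b-deficient embryos, at -0.23 to -0.48 where the same levels had -0.02 and -0.11. In Tbx5a-deficient and double-deficient embryos this was not so for several chaperones. psmg1 had 0.14 and 0.31 in these groups, where genes of 50 to 100 FPKM had -0.07 and -0.01. psmd5 had 0.09 and 0.15, where genes of 10 to 50 FPKM had -0.04 and -0.03. psmg2 had -0.09 and 0.15 and psmd10 -0.20 and 0.04, so both were above the level median only in double-deficient embryos. psmd9 had -0.09 and -0.04 and psmg3 -0.25 and -0.26, below it in both groups. psmf1, at 6.72 to 10.3 FPKM, had -0.52, -0.27 and -0.52 in embryos deficient in Tbx5a, Tbx5b or both at 21 hpf, against 0.08, 0.03 and 0.10 for genes of 1 to 10 FPKM. Each of these genes had overlapping bounds, and what part the level of a gene has in its ratio was not tested.

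**Figure D4:**
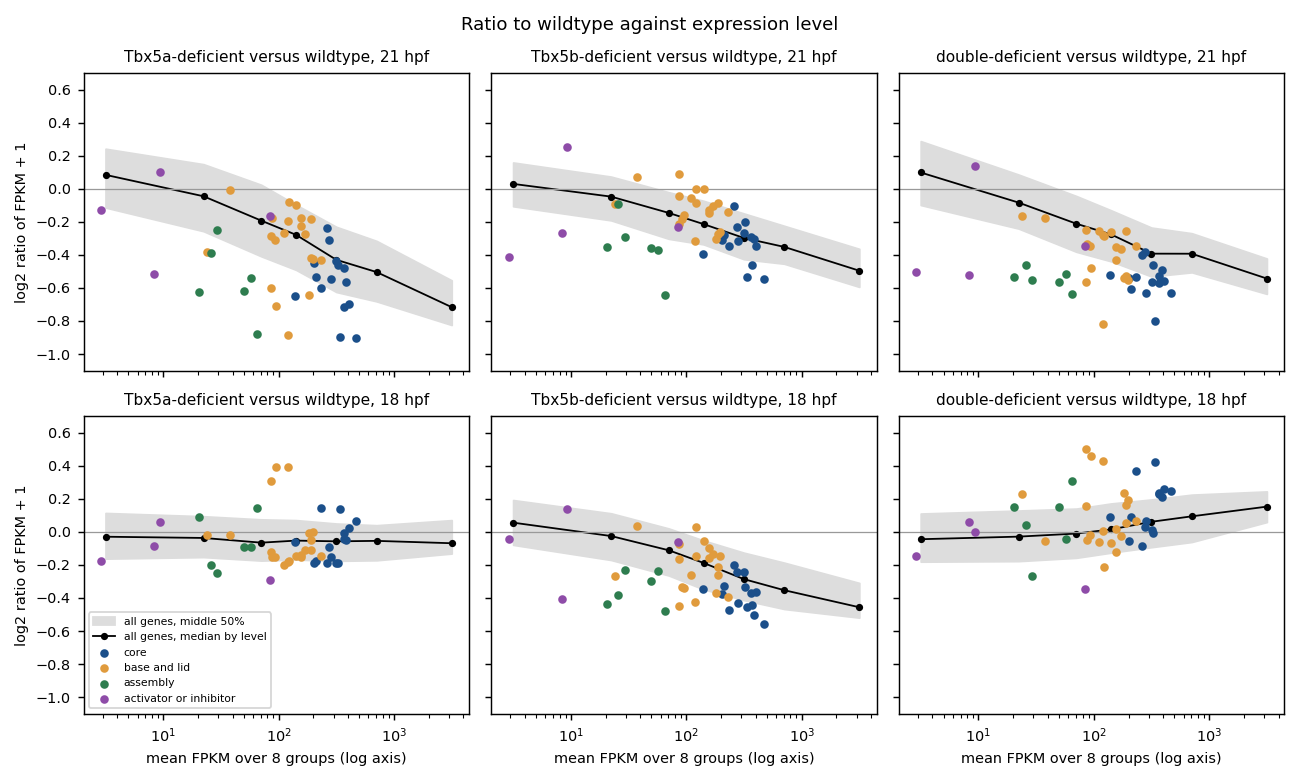
Log2 ratio of FPKM + 1 in deficient over wildtype embryos against the mean FPKM over 8 groups (log axis), at 21 hpf (top) and 18 hpf (bottom), with the median of all genes kept by level (black, at the middle of each level range) and the band of their middle 50% (grey). In Tbx5a-deficient embryos at 21 hpf the black line runs from 0.08 to -0.72, and the assembly chaperones (green) lie below it at -0.25 to -0.88, while equal summed FPKM would move all points of a panel up or down together.

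Between stages the genotypes differed in sign. In Tbx5a-deficient embryos the median ratio of 21 hpf over 18 hpf was -0.10, in Tbx5b-deficient embryos 0.28, in double-deficient embryos -0.31 and in wildtype embryos 0.21, against -0.01, -0.03, -0.01 and 0.01 over all genes kept. With equal summed FPKM these medians were 0.17, 0.10, -0.02 and -0.06, so that the signs in Tbx5a-deficient and wildtype embryos turned. The signs on the listed FPKM were shared by abundant genes. The 1025 genes of mean FPKM of at least 100 had medians of -0.19, 0.17, -0.24 and 0.20 in the same order of genotypes. In wildtype embryos 43 of the 46 genes were higher at 21 hpf by any amount, where 51.6% of all genes were, and in Tbx5b-deficient embryos 42 were, where 46.1% of all genes were. In double-deficient embryos 42 were lower, where 51.4% of all genes were, and in Tbx5a-deficient embryos 30 were lower, where 50.8% were. At the 1.5-fold limit the counts were small. They were 4 genes lower and 0 higher in Tbx5a-deficient embryos (7.83% and 6.89% of all genes), 2 higher and 1 lower in Tbx5b-deficient embryos (4.26% and 2.79%), 5 lower and 0 higher in double-deficient embryos (4.55% and 7.04%) and 1 higher and 0 lower in wildtype embryos (5.53% and 2.61%). No proteasome gene had bounds apart between stages, where 1.13%, 0.801%, 1.43% and 0.597% of all genes did in the same order of genotypes.

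Among genes of at least 10 FPKM the lid scaffold psmd3 had the highest stage ratio in both Tbx5b-deficient and wildtype embryos, also with equal summed FPKM, where it was 0.54 and 0.34. psmd3 had 132 FPKM at 21 hpf and 80.3 FPKM at 18 hpf in Tbx5b-deficient embryos, a ratio of 0.72, and 165 FPKM at 21 hpf and 108 FPKM at 18 hpf in wildtype embryos, a ratio of 0.61. In Tbx5a-deficient embryos psmd3 had 88.9 FPKM at 21 hpf and 142 FPKM at 18 hpf, a ratio of -0.67, and in double-deficient embryos 93.3 and 146 FPKM, a ratio of -0.64. psmg1 had stage ratios of -0.78, 0.08 and -0.71 in embryos deficient in Tbx5a, Tbx5b or both and of 0.24 in wildtype embryos. psmd10, a base chaperone also known as gankyrin, had 31.0 FPKM at 21 hpf and 19.6 FPKM at 18 hpf in Tbx5b-deficient embryos, a ratio of 0.63. psme1 was lower at the later stage in every genotype, with overlapping bounds. In embryos deficient in Tbx5a, Tbx5b or both psme1 had 2.46, 1.84 and 1.66 FPKM at 21 hpf, against 3.33, 3.75 and 3.43 FPKM at 18 hpf, and in wildtype embryos it had 2.78 FPKM at 21 hpf, against 3.90 FPKM at 18 hpf. Its ratio in Tbx5b-deficient embryos was -0.74.

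The classes did not keep one order between stages. In Tbx5a-deficient embryos the median stage ratio was -0.37 over the beta genes, -0.12 over the alpha genes, 0.08 over the ATPases and 0.00 over the lid. In double-deficient embryos it was -0.52 over the beta genes, -0.29 over the alpha genes, -0.16 over the ATPases and -0.27 over the lid. In wildtype embryos the same classes lay between 0.19 and 0.28. The beta genes thus had the lowest medians of these 4 classes in Tbx5a-deficient and double-deficient embryos. In Tbx5b-deficient embryos they had the highest, 0.36, against 0.28 over the ATPases and 0.25 over the lid. All genes of 200 to 500 FPKM had stage medians of -0.15, 0.19 and -0.26 in embryos deficient in Tbx5a, Tbx5b or both. The part of level in the order of the classes was not tested.

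**Figure D5:**
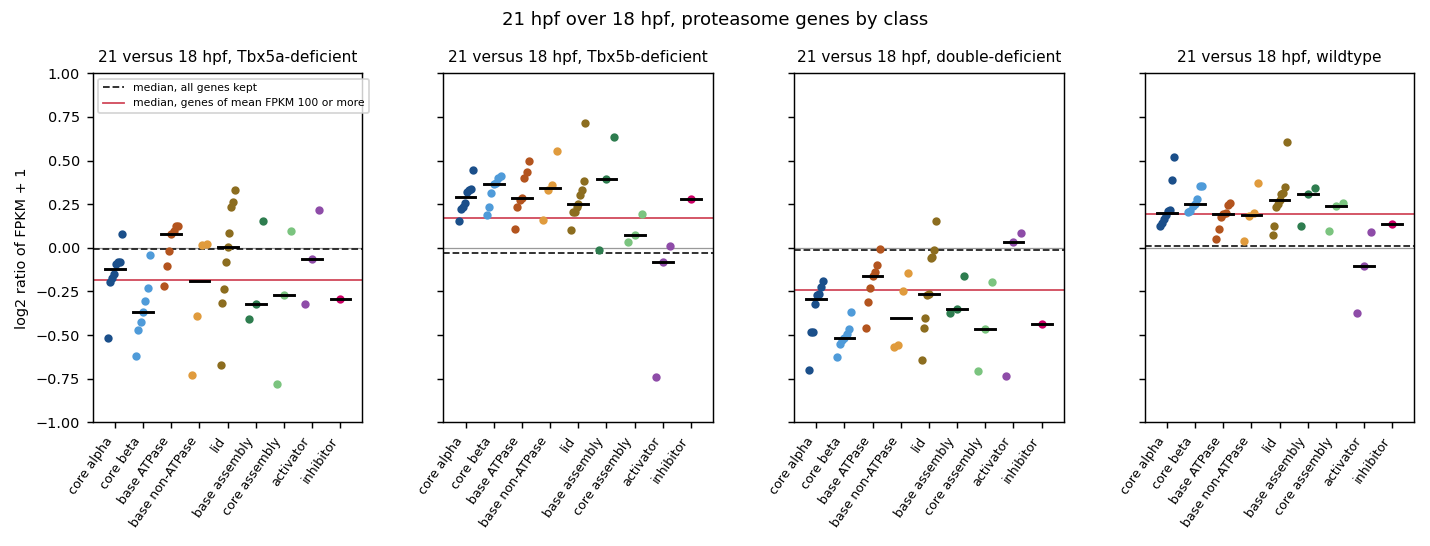
Log2 ratio of FPKM + 1 of proteasome genes at 21 hpf over 18 hpf in the 4 genotypes, each point a gene and each black bar the median of a class, with the medians of all genes kept (dashed) and of genes of mean FPKM of at least 100 (red). Overall medians are -0.10, 0.28, -0.31 and 0.21 from left to right and become 0.17, 0.10, -0.02 and -0.06 with equal summed FPKM.

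Partners of the proteasome outside the name rule were set beside it. Of 11 such genes listed, 2 were at least 1.5-fold lower and none higher in Tbx5a-deficient embryos at 21 hpf, while Tbx5b-deficient embryos had none and double-deficient embryos 2 lower, pomp and adrm1 in both cases. Of all genes 8.14%, 2.73% and 4.21% were that much lower in these comparisons. pomp, the chaperone that matures the core, had 368, 423 and 389 FPKM in embryos deficient in Tbx5a, Tbx5b or both at 21 hpf, against 594 FPKM in wildtype embryos. adrm1, another ubiquitin receptor, had 81.9, 110 and 91.6 FPKM, against 154 FPKM in wildtype embryos, with ratios of -0.90, -0.48 and -0.74. At 18 hpf adrm1 had 123, 79.8 and 135 FPKM, against 108 FPKM in wildtype embryos. Both genes were lower in the deficient groups at 21 hpf with overlapping bounds, as the core genes were. The median over the 11 partners was -0.20, -0.09 and -0.26, higher than that of the proteasome genes in each comparison.

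Genes known to regulate proteasome genes had higher median ratios than the proteasome genes at 21 hpf. nfe2l1b, related to the mammalian factor that activates proteasome genes when the proteasome is impaired, had 4.87, 4.03 and 4.99 FPKM in embryos deficient in Tbx5a, Tbx5b or both at 21 hpf, against 3.29 FPKM in wildtype embryos. At 18 hpf nfe2l1b had 3.06, 5.0 and 2.88 FPKM, against 3.97 FPKM in wildtype embryos. Its listed FPKM was higher than in wildtype embryos in 4 comparisons and lower in the Tbx5a-deficient and double-deficient groups of 18 hpf, with overlapping bounds throughout. Of the 6 regulators listed, those kept had medians of 0.04, 0.05 and 0.18 in the deficient groups at 21 hpf. The regulators had 0.554 to 41.6 FPKM over the triplicate groups, less than most proteasome genes. All genes of 1 to 10 FPKM had medians of 0.08, 0.03 and 0.10 at 21 hpf, and those of 10 to 50 FPKM -0.04, -0.05 and -0.08. Of the ubiquitin genes, 3 of 5 were at least 1.5-fold lower in Tbx5a-deficient embryos at 21 hpf, while 1 was in each of the other deficient groups, against the same 8.14%, 2.73% and 4.21% of all genes. The polyubiquitin gene ubc had 460, 648 and 575 FPKM, against 837 FPKM in wildtype embryos. The 9 listed shuttle factors and subunits of the p97 segregase, which bring ubiquitinated proteins to the proteasome, had medians of -0.17, -0.01 and -0.06 at 21 hpf and of 0.06, -0.10 and 0.21 at 18 hpf.

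Other multi-subunit complexes of the cytosol were set beside the proteasome. The 8 genes of the chaperonin CCT, which folds actin and tubulin, had median ratios of -0.40, -0.21 and -0.36 in embryos deficient in Tbx5a, Tbx5b or both at 21 hpf and of 0.08, -0.31 and 0.25 at 18 hpf. The 8 listed genes of the COP9 signalosome, a complex related to the lid, had -0.13, -0.07 and -0.24 at 21 hpf and -0.08, -0.06 and 0.03 at 18 hpf.

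The preliminary libraries, 1 per group, showed smaller medians at 21 hpf. There the median over the proteasome genes kept was -0.06 in the library labelled Tbx5a-deficient, with 35 of 45 genes lower by any amount, where 52% of all genes were. It was -0.01 in the library with the Tbx5b label, with 24 of 46 lower, where 50% of all genes were. Over all genes kept the medians were -0.01 and 0.00. With equal summed FPKM the second median was 0.14. At 18 hpf the medians were -0.11 and -0.16, against -0.03 and -0.02 over all genes kept, and 34 and 36 of the 44 genes kept were lower, where 53.9% and 52.8% of all genes were. In the library labelled Tbx5a-deficient at 21 hpf no gene was 1.5-fold apart, where 0.335% of all genes were higher and 0.446% lower. In the library with the Tbx5b label 1 was higher (4.22% of all genes) and 1 lower (4.54%). At 18 hpf 1 was higher (4.39%) and 2 were lower (5.98%) in the library labelled Tbx5a-deficient, and 0 were higher (5.5%) and 1 lower (5.46%) in the library with the Tbx5b label. Those lower under the Tbx5a label at 18 hpf were psmd1 and psmd3. None of the groups in this experiment was replicated, so no difference there has a replicate check.

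psmd1, psmd2 and psmd3 were among the genes with the most negative ratios in 1 of these libraries, the opposite direction. psmd1 had 66.3 FPKM in the library labelled Tbx5a-deficient at 18 hpf, against 110.5 FPKM in wildtype, a ratio of -0.73. psmd2 had 64.3 FPKM against 91.0 FPKM, and psmd3 69.0 FPKM against 104.8 FPKM, ratios of -0.49 and -0.60. In the 18 hpf library with the Tbx5b label their ratios were -0.19, -0.11 and -0.16, close to the median of -0.16 there. At 21 hpf the same genes had ratios of 0.21, 0.15 and 0.11 in the library labelled Tbx5a-deficient. The sign at 18 hpf under the Tbx5a label was not the one of the triplicate group with that label. Other genes lay near psmd2 in that 18 hpf library, with psme1 at -0.56, psmd11b at -0.46, psmc4 at -0.42 and psmd11a at -0.41.

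1 proteasome gene had bounds apart in the comparison of Tbx5b-deficient with wildtype at 21 hpf, where 4.09% of all genes did, and none in the other preliminary comparisons, where 0.215%, 2.53% and 2.69% did. psme1 had 1.88 FPKM, with bounds of 1.06 to 2.69 FPKM, in the 21 hpf library labelled Tbx5b-deficient, against 0.546 FPKM, with bounds of 0.227 to 0.865 FPKM, in wildtype. The summed FPKM of 11 interferon response genes was 32.7 in that library, against 13.5 in wildtype, with isg15 at 10.3 and 0.424 FPKM, and its part in the value of psme1 was not tested. In the library labelled Tbx5a-deficient psme1 had 0.834 FPKM. At 18 hpf psme1 had 5.24 FPKM in the library labelled Tbx5a-deficient and 4.82 FPKM in that for Tbx5b, against 8.19 FPKM in wildtype, and the summed FPKM of 12 interferon response genes was 9.61 and 10.3 in the deficient libraries, against 55.6 in wildtype. Most of that gap was isg15 alone, at 0.366 and 1.02 FPKM in the deficient libraries, against 45.1 FPKM in wildtype. At 21 hpf psme3 had 61.02 and 81.9 FPKM in the libraries of the Tbx5a and Tbx5b labels, against 62.9 FPKM in wildtype, and at 18 hpf 84.0 and 84.97 FPKM, against 95.6 FPKM in wildtype.

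Some values of the preliminary experiment at 18 hpf depend on how genes were listed there. psmd7 was listed at 0 in all 3 libraries, while it had 104 to 143 FPKM in the triplicate groups. psmc4 had 436 and 474 FPKM in the libraries of the Tbx5a and Tbx5b labels, against 584 FPKM in wildtype, compared with 161 to 217 FPKM in the triplicate groups. psmb5 was listed only together with another transcript, at 334 and 411 FPKM in the libraries of the Tbx5a and Tbx5b labels and 522 FPKM in wildtype, and was not counted among the 51. PSMG4, a core chaperone written in capitals and so outside the name rule, had 72.0 and 61.4 FPKM, against 62.0 FPKM in wildtype. PSMB10, likewise in capitals, had 10.6 and 17.7 FPKM in the libraries of the Tbx5a and Tbx5b labels, against 12.5 FPKM in wildtype, and which gene it is relative to the one listed as psmb10 is uncertain. A gene listed as PSMD2 (1 of 2) had 63.2 and 84.3 FPKM under these labels, against 89.3 FPKM in wildtype. These values are close to those of psmd2, and whether reads were divided between the 2 was not tested.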

How the data were processed

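PolyA RNA was sequenced in 24 triplicate and 6 preliminary libraries. The authors deposited 3 tables of FPKM made by Cufflinks and Cuffdiff, with a lower and an upper bound per value whose level is not given. The triplicate table holds 1 pooled FPKM per group, and each preliminary column comes from 1 library. The submitters' processing notes name bcl2fastq, TopHat2 2.1.0 and Bowtie2 2.2.5.0 and the build danRer10 (GRCz10), while the study's methods name Zv9. Which build each table uses is not given in the sources used here, and the tables hold no read counts per library, so no counting error was computed. FPKM depends on the scaling between libraries, which the tables do not state. Coordinates are those of the files, with 1 added to the listed start. Names were matched to the RefSeq annotation of GRCz12tu for symbols and chromosomes only, and all 53 matched. 9 of the 53 share a listed locus with another gene.

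Ratios were log2(FPKM + 1), which understates the ratios of low genes. A gene was kept in a comparison when its status was OK in both groups and its FPKM was at least 1 in one. It was counted at 1.5-fold, and separately when bounds did not overlap. With pooled values or single libraries no test was possible, and no p-value is given. Roles follow the gene symbols. Named genes were the proteolytic beta genes, paired copies, the highest and lowest of each class, the 3 largest ratios per triplicate comparison among genes of at least 10 FPKM, genes at least 1.5-fold apart in all deficient groups of a stage and genes with bounds apart. Others named were chosen after their values were seen. Members, roles and lists (partners, regulators, ubiquitin genes, shuttles, signalosome, chaperonin, eye, leukocyte, interferon and muscle markers) were chosen with earlier results of these data known. The level ranges, the genes of at least 100 FPKM and the grouping of psmd1, psmd2 and psmd3 were chosen after the values were seen. Alternatives were the share without genes of 1000 FPKM or more, a pseudocount of 0.1, no minimum, equal summed FPKM, equal upper quartile, a 2-fold limit, bounds apart, the mean and constitutive subunits only. Equal sums for single genes and the equal upper quartile for the share of all genes were added after seeing the data. Ratios, calls at 2-fold with bounds apart and the scaling to equal sums were tested on simulated data, and medians were not. Python 3.11.15 with pandas 2.3.3, numpy 2.4.6, scipy 1.17.1 and matplotlib 3.10.9 was used.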

Additional observations from a re-analysis of the deposited data

Results flagged for a closer look

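The median ratio of 21 hpf over 18 hpf differed in sign between genotypes. It was -0.10 in the Tbx5a-deficient, 0.28 in the Tbx5b-deficient and -0.31 in the double-deficient group, against 0.21 in wildtype embryos. Genes of mean FPKM of at least 100 had the same signs, with medians of -0.19, 0.17, -0.24 and 0.20 in that order. With equal summed FPKM the signs in Tbx5a-deficient and wildtype embryos turned. The difference between the genotypes was not tested, as each group has 1 pooled value. The ratio of double-deficient to wildtype embryos likewise had a median of -0.50 at 21 hpf and of 0.055 at 18 hpf, and this difference was not tested. With equal summed FPKM the medians of that ratio at the stages were nearly equal. Genes of 200 to 500 FPKM had a median of -0.39 at 21 hpf and of 0.06 at 18 hpf in the same comparison, and the part of level in the ratios of the proteasome was not tested.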

How the results depend on the processing

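The scaling between groups was the choice that moved the results most. With equal summed FPKM the median over the proteasome genes was 0.13, 0.17 and -0.058 at 21 hpf for deficiency in Tbx5a, Tbx5b and both, and 0.031 and -0.057 at 18 hpf for deficiency in Tbx5b and both. Between stages it was 0.17, 0.10, -0.019 and -0.058 in embryos deficient in Tbx5a, Tbx5b, both and in wildtype embryos, and in the preliminary Tbx5b comparison at 21 hpf 0.14. With an equal upper quartile the medians at 21 hpf were -0.32 for Tbx5a and -0.38 for both. On that scale the genes at least 1.5-fold apart numbered 7 for Tbx5a, 0 for Tbx5b and 2 for both at 21 hpf, and between stages 3 in double-deficient and 0 in wildtype embryos, where 8.03%, 2.14%, 6.9%, 11.1% and 8.27% of all genes were, a share added after seeing the data. At a 2-fold limit the count was 0 in all 10 comparisons that had any at 1.5-fold, and with bounds apart it was 0 in these, except for 1 in the preliminary Tbx5b comparison at 21 hpf. The signs of the 14 medians were kept with a pseudocount of 0.1. They were also kept without the minimum, with the mean and with constitutive subunits only, except in the preliminary Tbx5b comparison at 21 hpf, where the value lay between 0.0042 and 0.019. No paired analysis was possible because each triplicate group has 1 pooled column and each preliminary group 1 library, and for the same reason no library could be left out. What limits precision is the width of the bounds, as the tables hold no read counts.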
